A study of Homo sapiens with 6 samples.

Results

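The miR-23/27/24 clusters are a pair of paralogous groups of miRNA hairpins, miR-23a/27a/24-2 and miR-23b/27b/24-1. Every row of the miRNA table whose name starts with miR-23a, miR-23b, miR-27a, miR-27b or miR-24 was taken, which gave 10 of 449 listed mature miRNAs, 5 from the 3p arm and 5 from the 5p arm of their hairpins. They were measured by small RNA sequencing in breast cancer stem-like cells (BCSCs), sphere-forming cells grown from MDA-MB-231, an established human triple-negative breast cancer line whose genotype is labelled WT. The RA group (3 libraries) received 200 μg/mL rosmarinic acid (RA), a plant phenolic acid purified from S. glabra, for 48 h. The control group (3 libraries) received 0 μg/mL and was also collected at 48 h. Both groups were in medium with serum during treatment, and the study dissolved RA in dilute DMSO. The labels speak of wells, and no source states whether these were separate cultures, so the p-values reflect variation among the libraries, which may be technical.

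Each miRNA hairpin is cut by Drosha and Dicer into a short duplex. One strand, the guide, is loaded into an Argonaute protein and finds target mRNAs mainly through its seed, bases 2 to 8, while the other, the passenger, is usually degraded. In these clusters the 3p strands are the guides. miR-27a-3p is known in breast cancer cells for repressing the transcription factor FOXO1 and the zinc finger repressor ZBTB10. miR-24-3p restrains cell cycle genes such as E2F2 in human cells.

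The mature strands are shown because the a and b copies differ by few bases, which limits how far reads can be assigned to one cluster. The sequences are from RefSeq (GRCh38.p14), 5′ to 3′, with the seed in capitals, and all 10 members matched an entry.
hsa-miR-23a-3p: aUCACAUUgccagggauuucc
hsa-miR-23b-3p: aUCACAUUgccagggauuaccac
hsa-miR-27a-3p: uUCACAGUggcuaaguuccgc
hsa-miR-27b-3p: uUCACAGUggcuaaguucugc
hsa-miR-24-3p: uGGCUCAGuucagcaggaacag
hsa-miR-27a-5p: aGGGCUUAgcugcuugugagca
hsa-miR-27b-5p: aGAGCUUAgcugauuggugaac
hsa-miR-24-2-5p: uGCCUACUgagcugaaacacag
hsa-miR-24-1-5p: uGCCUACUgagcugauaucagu
hsa-miR-23b-5p: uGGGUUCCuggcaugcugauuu
Both miR-23-3p strands shared a seed, as did both miR-27-3p strands, and the seeds of these families began with the same 5 bases. With positions counted from the 5′ end, miR-27a-3p differed from miR-27b-3p by C19U alone. miR-23a-3p differed from miR-23b-3p by U19A and by 2 further bases at the 3′ end of miR-23b-3p. A read trimmed before base 19 fits both copies, so the split between them is uncertain. The 5p strands were further apart. miR-27a-5p and miR-27b-5p differed at 8 of 22 positions, including G3A in the seed, and miR-24-2-5p and miR-24-1-5p differed at 6 positions outside a shared seed. miR-24-3p is made by a hairpin in each cluster, and its reads cannot be assigned to one of them.

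The miR-27a precursor carries the finding described below, and its mature strands are in capitals (5p first, then 3p).
MIR27A hairpin: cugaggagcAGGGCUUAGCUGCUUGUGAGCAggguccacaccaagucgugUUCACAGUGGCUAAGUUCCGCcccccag
In GRCh38 the miR-23a/27a/24-2 cluster lies at chr19:13836287-13836659 on the minus strand, 373 bases from end to end, within an exon of a non-coding transcript (AC020916.1 in GENCODE). The miR-23b/27b/24-1 cluster lies at chr9:95085208-95086088 on the plus strand, 881 bases, inside the protein-coding gene C9orf3. There MIR23B and MIR27B overlap no exon of the gene, and MIR24-1 overlaps an exon that GENCODE marks as UTR in a C9orf3 transcript. The deposited values carry no coordinates. miR-23a-5p was not analysed here.

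The values are read counts scaled to library size (CPM) as normalized by the authors, and each was a whole multiple of 1 read. The RA libraries held 176590 to 1158116 miRNA reads and the control libraries 2190324 to 4111404, a median 11.5-fold lower after RA. One read stood for 5.21 CPM in RA replicate 2 and 0.233 CPM in control replicate 2, and depth and treatment cannot be told apart. The 4 miRNAs expected in this line (miR-21-5p, miR-100-5p, miR-221-3p and miR-222-3p) were present at 1459 CPM or more in each library. Of 5 miR-200 family members expected to be low, 4 were listed, with summed levels of 183 to 218 CPM in RA libraries and 195 to 277 CPM in controls. Most of this was miR-200b-3p, at 140 to 156 CPM in RA libraries and 145 to 217 CPM in controls. Its mean over all libraries, 162 CPM, was above that of some cluster members, such as miR-24-2-5p at 137 CPM. The extraction notes in the labels describe brain tissue where the study's methods describe these cells. Some miRNAs of other cell types stood higher in some or all RA libraries than in controls. Endothelial miR-126 (2 of 2 strands listed) summed to 412, 0 and 233 CPM in RA replicates 1 to 3, against 3.16 to 8.99 CPM in controls. Liver miR-122-5p was at 9493, 5.21 and 0 CPM in RA replicates 1 to 3, against 1.61 to 32.1 CPM in controls. Of 3 muscle miRNAs, 2 were listed, summing to 589 to 698 CPM in RA libraries and 610 to 915 CPM in controls, which overlapped. Most of that sum was miR-206, with means of 650 CPM in RA libraries and 758 CPM in controls. Of 7 listed blood miRNAs, summing to 1683 to 2682 CPM in RA libraries and 1935 to 2104 CPM in controls, 1 was called higher in limma and none lower, against 2.9% and 4.68% of all miRNAs. That was miR-451a, with 824, 26.0 and 355 CPM in RA replicates 1 to 3, against 5.26, 33.8 and 6.10 CPM in the controls. miR-223-3p had 3.95, 20.8 and 145 CPM in RA libraries and 0.526, 3.72 and 0.321 CPM in controls (adjusted p = 0.066 in limma), and miR-150-5p had 212 CPM in RA replicate 3, 0 in the other RA libraries and at most 1.05 CPM in controls. The other blood miRNAs were not called. By group mean, RA first and controls second, miR-142-3p (448 and 616 CPM), miR-142-5p (930 and 1003 CPM) and miR-486-5p (328 and 383 CPM) were lower. By the same means miR-144-3p (2.27 and 0.351 CPM) was higher. The part of all these miRNAs in the differences below was not tested.

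Together the 10 strands made up 4.46%, 5.81% and 6.15% of miRNA reads in RA replicates 1 to 3, against 5.00%, 5.15% and 5.60% in the controls. Their summed level was 52605 ± 1420 CPM in RA libraries and 56186 ± 6263 CPM in controls (SD, n = 3 each), and the groups overlapped (log2 difference -0.09, exact two-sided permutation p = 0.5). Nearly all of this was guide strand. miR-27b-3p alone gave between 66.2% and 72.7% of the clusters' reads in each library and was the 6th most abundant of the 449 miRNAs. Below it the mean levels ran in the order miR-27a-3p, miR-24-3p, miR-23b-3p, miR-23a-3p, miR-27a-5p, miR-24-2-5p, miR-27b-5p, miR-24-1-5p and miR-23b-5p. Neighbours in this order overlapped for miR-27a-3p and miR-24-3p in controls, for miR-27a-5p and miR-24-2-5p in RA libraries, for miR-24-2-5p and miR-27b-5p in both groups, and for miR-24-1-5p and miR-23b-5p in RA libraries. All strands are 21 to 23 bases long, so levels were set side by side without a length correction.

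**Figure D1:**
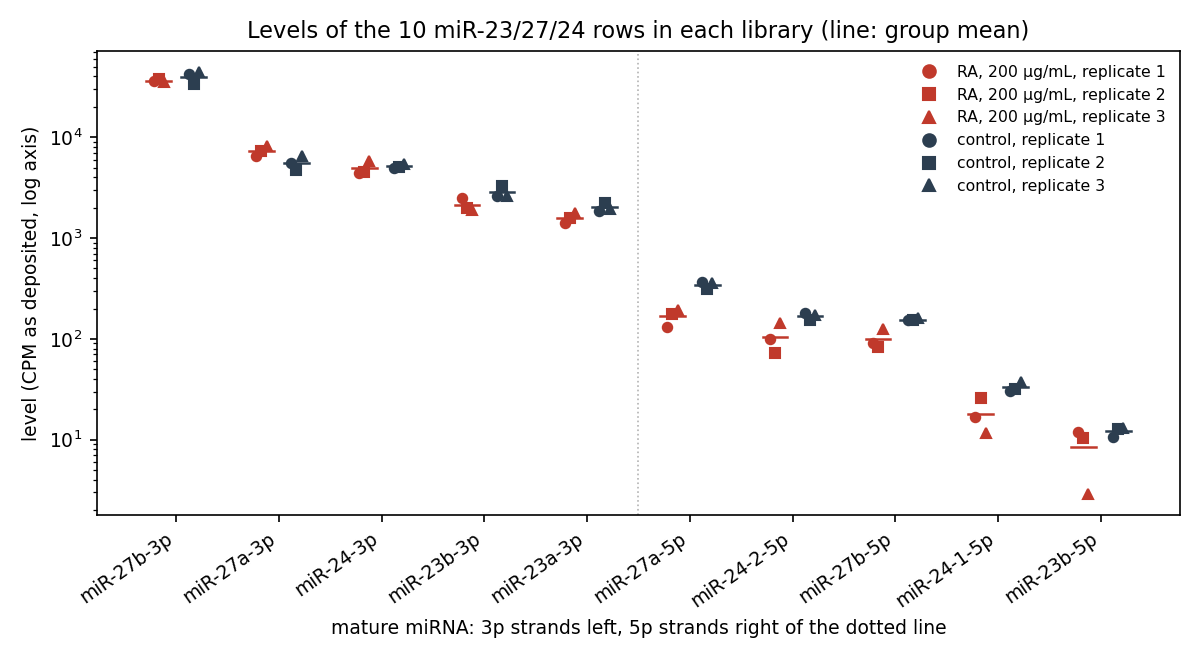
Level of each of the 10 mature miRNAs in each library, in CPM on a log axis, with RA libraries left of control libraries within each miRNA and group means as lines. All 3p strands lie above all 5p strands, and the miR-27a-5p means are 167 CPM in RA libraries and 345 CPM in controls.

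After RA, 1 of the 10 members was lower and none was higher at an adjusted p under 0.05. This was found with limma, a linear model fitted to log2(CPM + 1) of all 449 miRNAs, with Benjamini-Hochberg adjustment. Among all miRNAs 4.68% were called lower and 2.9% higher. On the recovered reads, edgeR (quasi-likelihood) also called 1 member lower and 0 higher (6.24% and 8.46% of all miRNAs), and 4 members had an unadjusted p under 0.05 in limma, all lower, against 13.8% of all miRNAs. In 6 members every RA library was below every control library, against 17.1% of all miRNAs, and in 1 member every RA library was above, against 8.69%. The median log2 fold change was -0.54 over the members and 0.00 over all miRNAs. By strand, the median was -0.73 for the 5p strands, with all 5 below 0. It was -0.12 for the 3p strands, with 4 of 5 below 0. Over all hairpins with both arms at a mean of at least 1 CPM, the less abundant arms had a median of -0.18. Of these arms, 68 of 102 were below 0. Every RA library was below every control in 21 of the 102 and above in 4, and 15 were lower at an unadjusted p under 0.05 in limma. The more abundant arms had a median of -0.15, with 64 of 101 below 0. Every RA library was below every control in 28 of the 101 and above in 11, and 23 were lower at an unadjusted p under 0.05 in limma.

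The member that passed was miR-27a-5p, the passenger strand of the miR-27a hairpin. It had 131, 177 and 192 CPM in RA replicates 1 to 3, against 367, 310 and 357 CPM in the controls, from 133, 34 and 66 reads in RA libraries and 698, 1331 and 1112 reads in controls. The highest RA library was below the lowest control. The means were 167 ± 31.6 CPM after RA and 345 ± 30.6 CPM in controls (SD, n = 3 each), a 2.07-fold difference of means. The log2 fold change was -1.06 (SE, the standard error, 0.23, adjusted p = 0.017 in limma, lower in 3 of 3 RA libraries). The part of depth and of the miRNAs of other cell types in this difference was not tested. Scaling to the library total ended the call (log2 fold change -0.92, adjusted p = 0.085 in limma), as did leaving out RA replicate 3 or any one control (adjusted p between 0.052 and 0.12 in limma).

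The guide strand of the same hairpin went the other way in value. miR-27a-3p had 6501, 7230 and 8099 CPM in RA replicates 1 to 3, against 5596, 4707 and 6481 CPM in the controls. Every RA library was above every control, by a small margin between RA replicate 1 and control replicate 3. The log2 fold change was 0.39 (SE 0.19), short of the threshold (adjusted p = 0.27 in limma). DESeq2 on the recovered reads called it higher, at a log2 fold change of 0.56 (adjusted p = 0.046), where it also called 10% of all miRNAs higher and put their median at 0.32.

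The ratio of both arms within a library does not depend on how libraries were scaled. The 5p share of miR-27a reads was 1.98% in RA replicate 1 (95% Wilson interval 1.67% to 2.34%), 2.39% in RA replicate 2 (1.72% to 3.32%) and 2.31% in RA replicate 3 (1.82% to 2.93%). In controls it was 6.16% (5.73% to 6.62%), 6.18% (5.86% to 6.51%) and 5.22% (4.93% to 5.53%). No RA interval reached a control interval, though these cover counting error only. There were 49.5, 40.8 and 42.2 guide reads for each passenger read in RA replicates 1 to 3, against 15.2, 15.2 and 18.1 in controls.

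For the fit, log2(5p/3p) was taken with 1 CPM added to each arm, which weighs most where an arm is low. The change of log2(5p/3p) for miR-27a was -1.44 (SE 0.25, adjusted p = 0.0091 in limma over 102 hairpins with both arms at a mean of at least 1 CPM), a 2.72-fold lower ratio. It was the 8th lowest of the 102. Of all hairpins 2.94% (3) had a lower ratio and 0.98% (1) a higher one at this threshold. The other lower ones were miR-30e (-1.91) and miR-30a (-1.69), in which the 5p strand is the more abundant arm and fell itself, with log2 fold changes of -1.56 and -1.68. The higher one was let-7g (2.13), whose 3p arm averaged 1.25 CPM. With RA replicate 1 as the only RA library the miR-27a ratio changed by -1.61 (adjusted p = 0.020 in limma, the lone library being assumed to vary like the controls). Without control replicate 1 or control replicate 2 the call was lost at -1.40 in each case (adjusted p = 0.064 and 0.076 in limma).

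**Figure D2:**
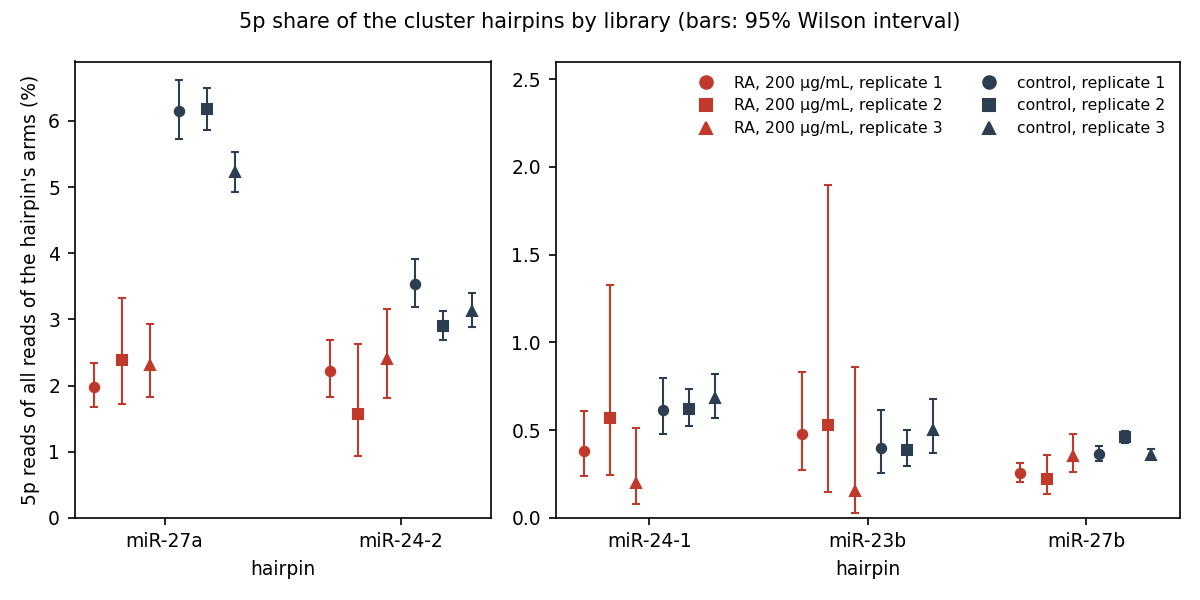
Share of 5p reads among the reads of both arms of each hairpin, in percent, by library, with RA libraries left of control libraries and bars showing the 95% Wilson interval; the 2 panels have different scales. For miR-27a the RA libraries lie at 1.98% to 2.39% and the controls at 5.22% to 6.18%, while for miR-23b the groups overlap.

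The other passenger strands were lower in value and did not pass. miR-24-2-5p, from the same cluster as miR-27a, had 99.7, 72.9 and 142 CPM in RA replicates 1 to 3, against 180, 153 and 174 CPM in the controls. Its log2 fold change was -0.73 (SE 0.29, adjusted p = 0.16 in limma), with every RA library below every control. miR-27b-5p, from the b cluster, had 90.8, 83.3 and 125 CPM in RA replicates 1 to 3, against 153, 154 and 160 CPM in the controls. Again the groups did not overlap, and the log2 fold change was -0.66 (SE 0.26, adjusted p = 0.16 in limma). Leaving out RA replicate 3, the highest of the RA values, brought miR-27b-5p past the threshold (log2 fold change -0.83, adjusted p = 0.030 in limma).

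The other 5p strands were near the limit of depth. miR-24-1-5p had 17, 5 and 4 reads in RA replicates 1 to 3, against 58, 137 and 116 in the controls, or 16.8, 26.0 and 11.6 CPM against 30.5, 31.9 and 37.3 CPM. All RA values were below the controls, with a log2 fold change of -0.90 (SE 0.44, adjusted p = 0.26 in limma). miR-23b-5p had 12, 2 and 1 reads in RA replicates 1 to 3, against 20, 55 and 41 in the controls, and its levels of 11.8, 10.4 and 2.91 CPM overlapped those of the controls, 10.5, 12.8 and 13.2 CPM. A difference in miR-23b-5p was not detectable at this depth (log2 fold change -0.66, SE 0.61, adjusted p = 0.63 in limma).

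Summed, the 5 passenger strands stood at 351, 370 and 474 CPM in RA replicates 1 to 3, against 741, 661 and 742 CPM in the controls. The log2 difference was -0.85 (SE 0.15), and no RA library reached a control. The exact two-sided permutation test gave p = 0.1, the smallest that 3 against 3 libraries allow (adjusted p = 0.4 over 4 sums). The largest part of this sum was miR-27a-5p, the member that passed. Its means were 167 of 398 CPM in RA libraries and 345 of 715 CPM in controls. In 4 of the 5 cluster hairpins the 5p/3p ratio of every RA library was below that of every control, against 16.7% of the 102 hairpins, and in 0 of the 5 was every RA library above, against 8.82%. The median change of log2(5p/3p) was -0.66 over the 5 hairpins and -0.05 over the 102. In all 5 the 5p strand is the less abundant one, as it is in 42 of the 102. Taken as the ratio of the less to the more abundant arm, every RA library was below every control in 15.7% of the 102 hairpins. The log2 change of that ratio was below 0 in 51 of the 102, with a median of 0.02, and in all 5 of the clusters, where miR-24-1 and miR-24-2 share miR-24-3p as their other arm.

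For the hairpins other than miR-27a the ratio did not pass. The 5p share of miR-24-2 was 2.22%, 1.58% and 2.40% in RA replicates 1 to 3, against 3.53%, 2.90% and 3.13% in the controls, with a log2 change of -0.66 (SE 0.29, adjusted p = 0.37 in limma). For miR-24-1 the shares were 0.381%, 0.569% and 0.200% in RA libraries and 0.617%, 0.620% and 0.685% in controls, a log2 change of -0.83 (SE 0.40, adjusted p = 0.37 in limma) that came to -0.44 without RA replicate 3. For miR-27b they were 0.253%, 0.220% and 0.353% in RA libraries and 0.364%, 0.459% and 0.358% in controls, a log2 change of -0.53 (SE 0.27, adjusted p = 0.37 in limma). The miR-27b values of RA replicate 3 and control replicate 3 nearly met. miR-23b shares ran from 0.152% to 0.526% in RA libraries and from 0.386% to 0.501% in controls, and the sign of its change depended on RA replicate 3 (-0.23 with it and 0.24 without it). With 5 CPM added to each arm in place of 1, the miR-23b change was -0.00045.

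**Figure D3:**
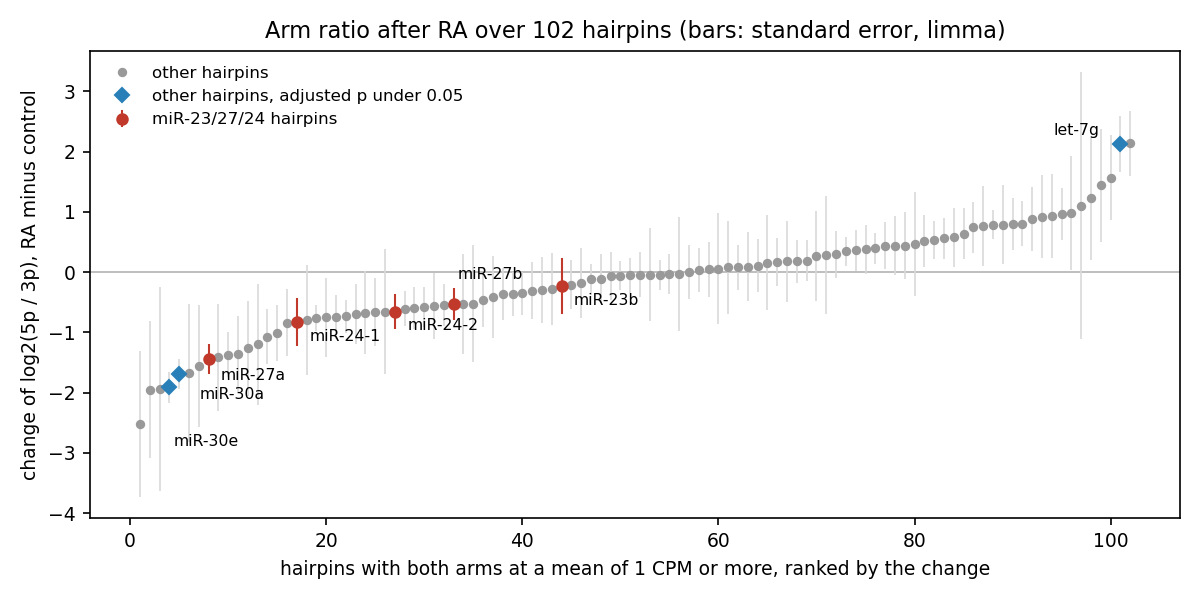
Change of log2(5p/3p), RA minus control, for each of 102 hairpins ranked from lowest to highest, with standard errors from limma. The 5 cluster hairpins (red) are all below 0, from -1.44 for miR-27a to -0.23 for miR-23b, and miR-30e, miR-30a and let-7g (blue) are the other hairpins past the threshold.

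Among the guide strands of the miR-23 family, miR-23b-3p had 2474, 1969 and 1905 CPM in RA replicates 1 to 3, against 2629, 3302 and 2614 CPM in the controls. All RA libraries were below all controls, RA replicate 1 narrowly so. The log2 fold change was -0.43 (SE 0.19, unadjusted p = 0.045 and adjusted p = 0.21 in limma). Its paralog miR-23a-3p had 1403, 1568 and 1771 CPM in RA replicates 1 to 3, against 1866, 2217 and 1944 CPM in the controls, again without overlap, with a log2 fold change of -0.35 (SE 0.18, adjusted p = 0.31 in limma).

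The other guides differed between groups by less than the spread of their libraries. miR-27b-3p, at 35846, 37787 and 35318 CPM in RA replicates 1 to 3, against 41866, 33335 and 44431 CPM in the controls, lay inside the control range in each RA library. Its log2 fold change was -0.12 (SE 0.20, adjusted p = 0.75 in limma). miR-24-3p had 4391, 4553 and 5804 CPM in RA replicates 1 to 3, against 4916, 5109 and 5400 CPM in the controls, with RA libraries on both sides of the control range. Its log2 fold change was -0.08 (SE 0.18, adjusted p = 0.82 in limma). Scaling to the library total, which moved the median of all miRNAs to 0.13, turned the sign of both (0.01 for miR-27b-3p and 0.06 for miR-24-3p).

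The a and b clusters were compared through ratios within a library, in 6 ratios with p-values adjusted over them. miR-27a-3p over miR-27b-3p was 0.181, 0.191 and 0.229 in RA replicates 1 to 3, against 0.134, 0.141 and 0.146 in the controls. There were thus 5.03 miR-27b-3p reads for each miR-27a-3p read on average after RA and 7.14 in controls. The groups did not overlap, and the log2 ratio was higher by 0.51 (SE 0.11, exact two-sided permutation p = 0.1, adjusted p = 0.3). These strands share the seed and differ at the base that C19U names, so the split rests on reads that cover it.

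The other paralog ratios overlapped between the groups. miR-23a-3p over miR-23b-3p was 0.567, 0.796 and 0.930 in RA replicates 1 to 3, against 0.709, 0.671 and 0.744 in the controls, with RA libraries on both sides (log2 difference 0.08, SE 0.21, exact permutation p = 0.8). For the passengers, miR-27a-5p over miR-27b-5p was 1.45, 2.12 and 1.53 in RA libraries and 2.40, 2.02 and 2.24 in controls. These overlapped through RA replicate 2 (log2 difference -0.40, SE 0.19, exact permutation p = 0.2). miR-24-2-5p over miR-24-1-5p ranged from 2.80 to 12.2 in RA libraries, where it rests on 4 to 17 reads of miR-24-1-5p, and from 4.68 to 5.90 in controls (exact permutation p = 0.8).

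Within the a cluster, miR-27a-3p and miR-23a-3p come from neighbouring hairpins of one primary transcript. Their ratio was 4.63, 4.61 and 4.57 in RA replicates 1 to 3, against 3.00, 2.12 and 3.33 in the controls. The RA libraries lay close together and all above the controls, with a log2 difference of 0.73 (SE 0.20, exact two-sided permutation p = 0.1, adjusted p = 0.3). Within the b cluster, miR-27b-3p over miR-23b-3p was 14.5, 19.2 and 18.5 in RA libraries and 15.9, 10.1 and 17.0 in controls, which overlapped (log2 difference 0.31, SE 0.27, exact permutation p = 0.4). No difference between the a and b clusters in this ratio was tested.

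**Figure D4:**
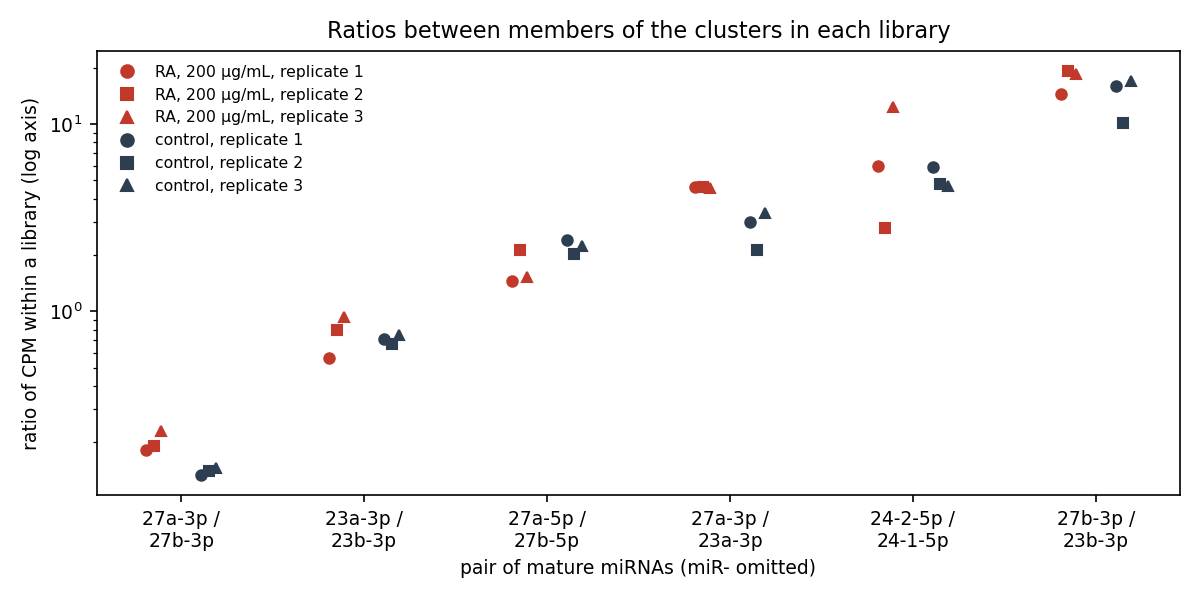
Ratios of CPM between pairs of cluster members in each library, on a log axis, with RA libraries left of control libraries. miR-27a-3p over miR-27b-3p (0.181 to 0.229 in RA libraries, 0.134 to 0.146 in controls) and miR-27a-3p over miR-23a-3p (4.57 to 4.63 in RA libraries, 2.12 to 3.33 in controls) do not overlap between groups, and the other 4 ratios do.

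Other miRNAs tied to miR-27 were read from a list of 3. miR-128-3p, shown because the 7 bases of the miR-27-3p seed open its sequence from base 1, is one base out of register with that seed.
miR-128-3p: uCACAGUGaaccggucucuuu
It had 1178, 370 and 619 CPM in RA replicates 1 to 3, against 264, 257 and 269 CPM in the controls, with a wide spread after RA and a narrow one in controls. Its log2 fold change was 1.29 (SE 0.34, adjusted p = 0.039 in limma), higher in 3 of 3 RA libraries. It was called under 11 of 17 alternatives, and not without RA replicate 3, without any one control, with a pseudocount of 5 or with a filter of 1 CPM in 3 libraries (adjusted p up to 0.36 in limma). miR-96-5p and miR-182-5p, which with miR-27a repress FOXO1 in breast cancer cells, were low in all libraries. Their highest levels were 6.31 and 12.1 CPM, both in control replicate 1. miR-96-5p had 1, 0 and 0 reads in RA libraries and 12, 5 and 1 in controls, and miR-182-5p had 3, 1 and 0 reads in RA libraries and 23, 19 and 3 in controls. Of the 3, 1 was higher and none lower, against 2.9% and 4.68% of all miRNAs.

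The profiles nearest to those of the members were found among 144 other miRNAs averaging 100 CPM or more, by the root mean square difference of centred log2(CPM + 1) over the 6 libraries. This is a description, since the miRNAs were picked for likeness. miR-140-3p was nearest to miR-27a-5p (difference 0.12), with 5182, 7684 and 6523 CPM in RA replicates 1 to 3, against 13165, 11241 and 12215 CPM in the controls. miR-378c (0.13) and miR-101-3p (0.15) followed, and like miR-27a-5p all of these were lowest in RA replicate 1. The nearest to miR-27a-3p was miR-181b-5p (0.14), to miR-27b-3p miR-25-3p (0.10) and to miR-24-3p miR-99b-5p (0.10). miR-23a-3p and miR-27b-5p both had miR-93-5p as nearest (0.10 and 0.16), and miR-23b-3p had miR-214-5p (0.12). For miR-24-2-5p the nearest was miR-100-5p, at 0.26.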

How the data were processed

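Small RNA of BCSCs was sequenced in 3 RA and 3 control libraries. The authors deposited a normalized signal for each mature miRNA in each library, in CPM relative to an effective library size, and group log2 values, which were not used. The submitters' notes name hg19 (aligner and counting tool: not given in the sources used here). Each of the 2694 values (100%) was a whole multiple of 1 read within 0.01 reads, and reads were recovered by division. Because the signal is not a count, limma 3.58.1 (trend, R 4.3.3) on log2(CPM + 1) was the main test, which understates changes of low miRNAs. Log2 ratios between arms and between members also had 1 CPM added to each term. edgeR 4.0.16, DESeq2 1.42.0 and limma-voom on recovered reads, pseudocounts of 0.5 and 5, filters, other scalings, a replicate block and leaving out libraries were alternatives. The scripts were tested on simulated data. All rows of the clusters were named, plus the nearest of the 3 closest profiles per member (all 3 for miR-27a-5p) and one list. Members and lists were chosen with earlier results of these data known. A count of 0 allows up to 3 reads, 15.6 CPM in RA replicate 2. Intervals and floors cover counting error only.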

Additional observations from a re-analysis of the deposited data

How the results depend on the processing

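Of 365 values under alternatives, 334 kept their direction and side of the threshold or, for counts, ratios and sums, stayed near the reported value (ratios and sums within 1 SD between libraries, whatever their sign). The count of members lower after RA, 1 as reported, was 0 with the library total (2.45% of all miRNAs lower), 0 with the upper quartile (2.67%) and 0 to 1 when leaving out one library (0.891% to 6.24%). Without RA replicates 2 and 3, chosen after seeing the data, it was 2, miR-27a-5p and miR-27b-5p (7.13%). miR-27a-5p was called under 11 of 17 alternatives, with log2 fold changes of -1.38 to -0.90. The count of members higher was 1 with DESeq2, against 0, where 10% of all miRNAs were called higher. The count of the 5 cluster hairpins with a lower 5p/3p ratio was 0 to 1 when leaving out one library, with 1.96% to 8.82% of the 102 hairpins lower. The miR-27a ratio was called under 11 of 13 alternatives, at -1.61 to -1.36, including edgeR with the guide reads as offset (adjusted p = 0.0020), added after seeing the data.

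The log2 fold change of miR-24-3p turned to 0.0615 with the library total, 0.0558 with the upper quartile, 0.12 with DESeq2 and 0.00075 without RA replicate 1 (-0.20 to 0.00075 when leaving out one library). That of miR-27b-3p turned to 0.012 with the library total, 0.0061 with the upper quartile and 0.044 with DESeq2. The 5p/3p ratio of miR-23b turned to 0.24 without RA replicate 3 (-0.50 to 0.24 when leaving out one library) and 0.17 without RA replicates 2 and 3. As a share of listed reads, the sum of all members differed by 0.047 and that of the 3p strands by 0.055 (log2). Among ratios and sums within 1 SD, miR-24-2-5p over miR-24-1-5p turned to -0.34 and miR-23a-3p over miR-23b-3p to -0.074 without RA replicate 3. The sum of miR-27a-3p and miR-27b-3p turned to 0.086 as a share of listed reads and to 0.036 without control replicate 3. miR-24-2-5p over miR-24-1-5p was 0.69 without RA replicate 2. The cause was not tested.

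Same-numbered libraries deviated together with r of 0.12, -0.19 and 0.13. RA replicates 1 and 3 correlated best with the same-numbered control, and RA replicate 2 with control replicate 3 (r of 0.14). These values cannot decide whether the numbers pair the libraries, since deviations from the mean of 3 libraries depend on each other. With the replicate block in limma miR-27a-5p (adjusted p = 0.0026) and the miR-27a ratio (adjusted p = 0.043) stayed called, and the count of members lower was 1. Depth limits the 5p strands most: miR-23b-5p rests on 15 reads in all RA libraries together.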
